A study of Mus musculus with 22 samples.

Results

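The miRNA pool of the paraventricular nucleus of the hypothalamus (PVH) was compared between male offspring of obese and of control dams. The PVH libraries were taken by the nucleus and maternal group that the deposited column headers give, which left 11 of the 22 libraries of the series, 5 from Off-Ob and 6 from Off-C mice. All 172 listed miRNAs were used. Off-Ob mice were sons of C57BL/6J dams fed an obesogenic high-fat diet with condensed milk, and Off-C mice were sons of C57BL/6J dams fed chow. All sons were themselves fed chow and were studied at 8 weeks of age. Per the study's methods, 1 male per litter entered an experiment, and the PVH was cut from frozen sections by laser capture, so each library is a mixture of cells. In such bulk tissue, fewer cells of a type and less RNA per cell cannot be told apart. The arcuate nucleus (ARC) of the same study is used only for comparison. Its 11 libraries are from the same set of 12 mice, of which 10 gave both nuclei. Columns could not be tied to single sample records, so libraries are named by mouse (F12A to F42A for Off-Ob, RC5A to RC13A for Off-C).

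A miRNA is a short RNA that guides Argonaute proteins to messenger RNAs, which are then less translated or degraded. Pairing rests mainly on the seed, bases 2 to 8 of the miRNA, so miRNAs with the same seed are grouped as a family. A hairpin precursor yields a 5p and a 3p arm, and usually 1 of them accumulates. The PVH holds the oxytocin, vasopressin and corticotropin-releasing hormone neurons and receives signals on energy state from the ARC. In mammals, miR-7a is enriched in neuroendocrine cells of the hypothalamus and pituitary, let-7 miRNAs are abundant in the mature brain, and miR-505-5p is the miRNA that the study followed up for fatty acid handling and food intake.

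The mature sequences of the miRNAs on which the results turn are given 5′ to 3′ from RefSeq (GRCm38.p6), with the seed in capitals. RefSeq held a sequence for 149 of the 172 miRNAs, 1 of them under another name, and these carried 89.2% of the PVH reads. The first group shows miR-7a-5p, 4 let-7 members that are also among the 10 most abundant miRNAs (let-7c-5p, let-7g-5p, let-7k and let-7f-5p), and let-7a-5p and let-7i-5p, which are less abundant and are compared with them. All of the let-7 members share 1 seed and differ only behind it.
miR-7a-5p: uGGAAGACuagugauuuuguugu
let-7c-5p: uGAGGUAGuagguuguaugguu
let-7a-5p: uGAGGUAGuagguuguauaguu
let-7g-5p: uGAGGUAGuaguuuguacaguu
let-7k: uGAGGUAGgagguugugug
let-7f-5p: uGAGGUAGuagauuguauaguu
let-7i-5p: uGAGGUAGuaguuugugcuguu
The second group shows pairs of the same seed whose read ratio differed between PVH libraries, and miR-505-5p.
miR-29c-3p: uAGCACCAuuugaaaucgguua
miR-29b-3p: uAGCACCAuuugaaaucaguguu
miR-30e-3p: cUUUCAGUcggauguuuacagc
miR-30a-3p: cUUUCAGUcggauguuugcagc
miR-505-5p: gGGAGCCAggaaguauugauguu
Counted from 1 at the 5′ end, miR-30e-3p and miR-30a-3p differ only by A18G, and let-7a-5p and let-7c-5p only by A19G. The miR-29c-3p and miR-29b-3p sequences differ by G18A, U21G and A22U over the length of miR-29c-3p. miR-505-5p is the 5p arm of Mir505 on the minus strand at chrX:60394451-60394473. miR-29c-3p lies at chr1:195037600-195037621, and 1 of the 2 copies of miR-29b-3p lies beside it at chr1:195037091-195037113, both on the plus strand.

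The authors' values are log2(CPM + 1), in which CPM (read counts at a common library size) are scaled to a library total that carries a factor of its own. Whole reads were recovered from them, and every value lay within 0.01 of a whole read. The PVH libraries held 25819 to 61476 reads in Off-Ob and 22495 to 56253 reads in Off-C mice, with scale factors of 0.857 to 1.13 and 0.892 to 1.12. Read totals did not differ beyond their spread (42945 ± 15711 in Off-Ob and 37621 ± 11408 in Off-C, SD, n = 5 and 6, two-sided exact permutation p = 0.519, adjusted p = 0.818 over 3 depth measures). The scale factors and the number of miRNAs at 0 reads had exact permutation p-values of 0.835 and 0.545. The 11 column names begin with the same identifier, and no batch within the PVH is named. The ARC columns all begin with another identifier, so nucleus and identifier cannot be told apart where the nuclei are compared.

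The PVH pool was led by a few miRNAs. miR-7a-5p took 15.0 ± 2.35% of the reads in Off-Ob and 13.5 ± 1.55% in Off-C libraries (SD, n = 5 and 6). let-7c-5p took 12.4 ± 1.41% in Off-Ob and 13.8 ± 2.88% in Off-C libraries. 7 miRNAs made up 50% of the pool by mean share and 44 made up 90%. At the other end, 93 of the 172 miRNAs had a mean share under 0.1%, and only 46 had a mean of at least 100 reads in a library.

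By library, miR-7a-5p gave 10938, 4675, 6764, 7544 and 3032 reads in Off-Ob mice F12A, F13A, F14A, F41A and F42A, and from 3169 to 7162 reads with a median of 5029.5 in Off-C mice. let-7c-5p gave 8549, 3277, 5225, 7633 and 2807 reads in the same Off-Ob mice, and from 2322 to 8895 reads with a median of 4945 in Off-C mice. The groups overlapped for both miRNAs. miR-7a-5p was first in 4 of the Off-Ob libraries, with let-7c-5p first in F41A. In Off-C, let-7c-5p was first in RC5A, RC8A and RC13A and miR-7a-5p in the other 3. At these depths the 95% Wilson interval of a library's share reached at most 0.455 percentage points to either side for miR-7a-5p and 0.414 for let-7c-5p. Wilson intervals and the limits given for 0 reads hold for counting error alone, because amplified reads were not tagged by molecule. Which of these 2 miRNAs led the pool thus varied among libraries within both groups.

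**Figure D1:**
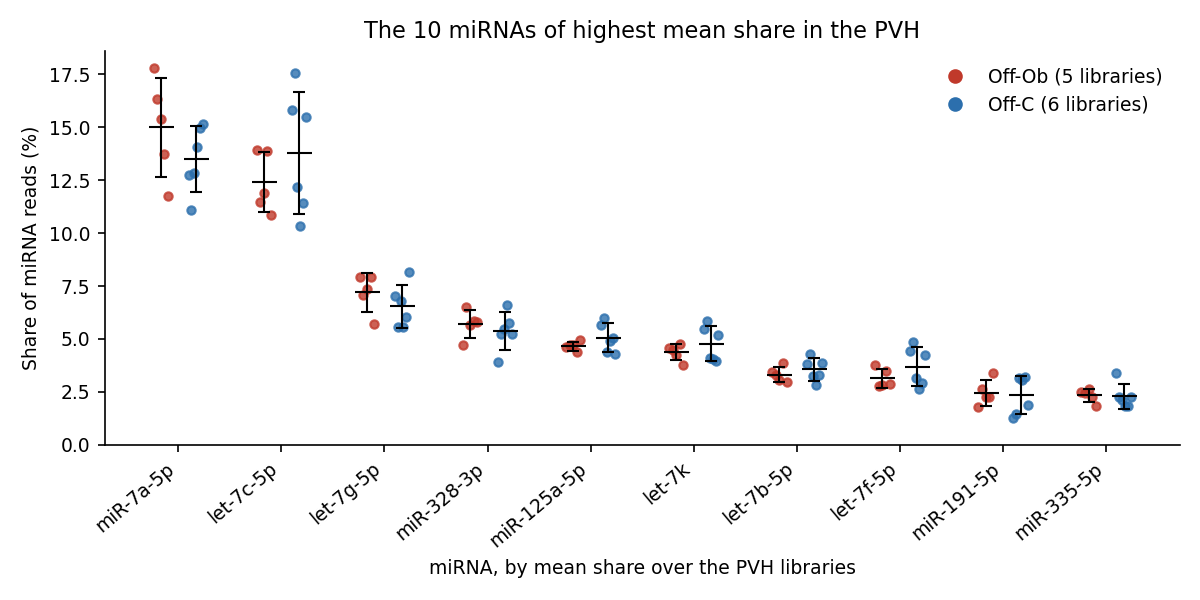
Share of miRNA reads (%, linear axis) of the 10 miRNAs of highest mean share in 5 Off-Ob (red, left) and 6 Off-C (blue, right) PVH libraries. Each point is a library, the bar is the group mean and the whiskers are 1 SD, and the groups overlap for each of the 10.

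Grouped by seed, the 10 measured members of let-7 (seed GAGGUAG) took 35.3 ± 3.07% of the reads in Off-Ob and 37.2 ± 5.12% in Off-C libraries. In the ARC the same sum ranged from 33.8 to 79.1% of reads, against 30.5 to 42.6% over all PVH libraries. The ARC range includes the library of F42A, which had 20 miRNAs at 0 reads and a scale factor of 0.470. A difference between the nuclei in this sum was not tested. Among the members, let-7c-5p, let-7g-5p (6.83% mean share), let-7k (4.59%), let-7b-5p (3.45%) and let-7f-5p (3.44%) were all in the first 10. let-7a-5p, which differs from let-7c-5p by a single base, gave only 6 to 20 reads in Off-Ob and 1 to 32 reads in Off-C libraries. How reads that match several members were assigned is not given in the sources used here, so the split between members is uncertain. The miR-7 seed (GGAAGAC) came to 15.1 ± 2.35% in Off-Ob and 13.5 ± 1.56% in Off-C libraries, almost all of it miR-7a-5p. The miR-125 seed (CCCUGAG), whose miR-125a and miR-125b act in neural differentiation, came to 6.24 ± 0.516% and 6.63 ± 0.792% in Off-Ob and Off-C libraries. The miR-29 seed (AGCACCA), a family that in mouse brain rises with maturation, came to 3.13 ± 1.10% in Off-Ob and 2.82 ± 1.45% in Off-C libraries, and its spread came from miR-29c-3p.

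The tissue label was checked against marker miRNAs of other cell types. Of 18 neuron-enriched miRNAs, 15 were listed, with a summed share of 5.23 to 6.84% in Off-Ob and 4.67 to 6.79% in Off-C libraries. Their best known member, miR-124-3p, was low, with 3 to 22 reads in Off-Ob and 3 to 35 reads in Off-C libraries. Of 4 oligodendrocyte names 2 were listed, with a sum of 0.0175 to 0.0592% in Off-Ob and 0.0213 to 0.0579% in Off-C libraries. The vessel list had 3 of its 8 names, mainly miR-126-5p, and summed to 2.03 to 2.40% in Off-Ob and 2.00 to 3.25% in Off-C libraries. No muscle or liver marker was listed (0 of 4). Of the 6 red blood cell names miR-16-5p alone was listed, and of the 7 pituitary names miR-7a-5p alone. The lists for microglia and inflammation, astrocytes and ependyma had 3 of 8, 3 of 5 and 1 of 5 names listed, with sums of at most 0.471, 0.670 and 0.0979% in Off-Ob and 0.461, 0.689 and 0.132% in Off-C libraries. The astrocyte sum was mostly miR-143-3p, which is also in the vessel list. It had a mean of 139.9 reads per library, against 23.3 for miR-181a-5p and 20.4 for miR-29a-3p. Some lists hold a miRNA under both an older and a newer name, such as miR-219-2-3p and miR-219a-2-3p. Counts of names therefore understate how many of the miRNAs were covered. The summed levels of each of these lists overlapped between the maternal groups.

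Most of the variation among PVH libraries did not follow maternal group. Of the total variation in log2(CPM + 1) over the 172 miRNAs, 6.89% lay between the group means, and the median miRNA had 3.22% of its variation there. The highest share was 37.8%, in miR-146b-5p. A principal component analysis gave a first component with 33.5% of the variance, of which 4.31% lay between the groups. On it, Off-Ob mice F12A, F13A, F14A, F41A and F42A scored -0.31, -1.19, 2.02, 0.07 and 4.75. Off-C mice RC5A, RC8A, RC9A, RC11A, RC12A and RC13A scored -10.0, -6.90, 4.58, 4.70, 4.30 and -1.97. The Off-C group held both ends of this axis except for F42A at 4.75. RC5A and RC8A stood apart at the low end, and their median correlation with the other libraries was 0.911 and 0.922, against 0.939 to 0.961 in the other 9 libraries. Differences by maternal group were also fitted without RC5A and RC8A, a choice made after seeing the data. For the named miRNAs, those values are given where they differ by over 1.5 times.

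The 6 highest loadings were those of miR-30e-3p, miR-31-5p, miR-652-5p, miR-380-3p, miR-29c-3p and miR-322-5p, and the 6 lowest those of let-7a-5p, miR-467a-5p, miR-467b-5p, miR-340-3p, miR-374c-3p and miR-344e-3p. Several of these had few reads (miR-31-5p 0 to 8, miR-652-5p 0 to 3). Among the 110 miRNAs with a mean of at least 20 reads the component held 53.7% of the variance, and its scores correlated with those from all miRNAs at r = 0.95 over the 11 libraries, which share their reads. That component rested largely on miR-30e-3p, at 0 reads in RC5A, with a loading of 0.67 against 0.19 for the next, miR-380-3p. On it RC5A scored -10.3 and RC8A -3.06. With a pseudocount of 100, which lessens the weight of 0 reads, RC5A, RC8A and RC13A scored -5.76, -4.52 and -3.13. The scores from all miRNAs rose with the authors' scale factor by rank (Spearman rho = 0.82, permutation p = 0.0031, adjusted p = 0.0092 over 3 relations). By value they rose less closely (Pearson r = 0.60, permutation p = 0.055, adjusted p = 0.12, and r = 0.68 without F42A and F12A, whose factors lay farthest from the median). Among the 6 Off-C libraries alone the exact permutation p-values were 0.122 for r = 0.72 and 0.103 for rho = 0.77. For the read total, r was -0.35 (permutation p = 0.289, adjusted p = 0.289), rho was -0.40 (permutation p = 0.222, adjusted p = 0.222) and r without RC11A and F12A was -0.27. For the miRNAs at 0 reads, r was -0.60 (permutation p = 0.078, adjusted p = 0.12), rho was -0.51 (permutation p = 0.115, adjusted p = 0.17) and r without RC8A and F13A was -0.43. The deposited values are themselves scaled by the authors' factor, so the scores and the factor are not independent measures. The part of the scale factor in the component was not tested.

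**Figure D2:**
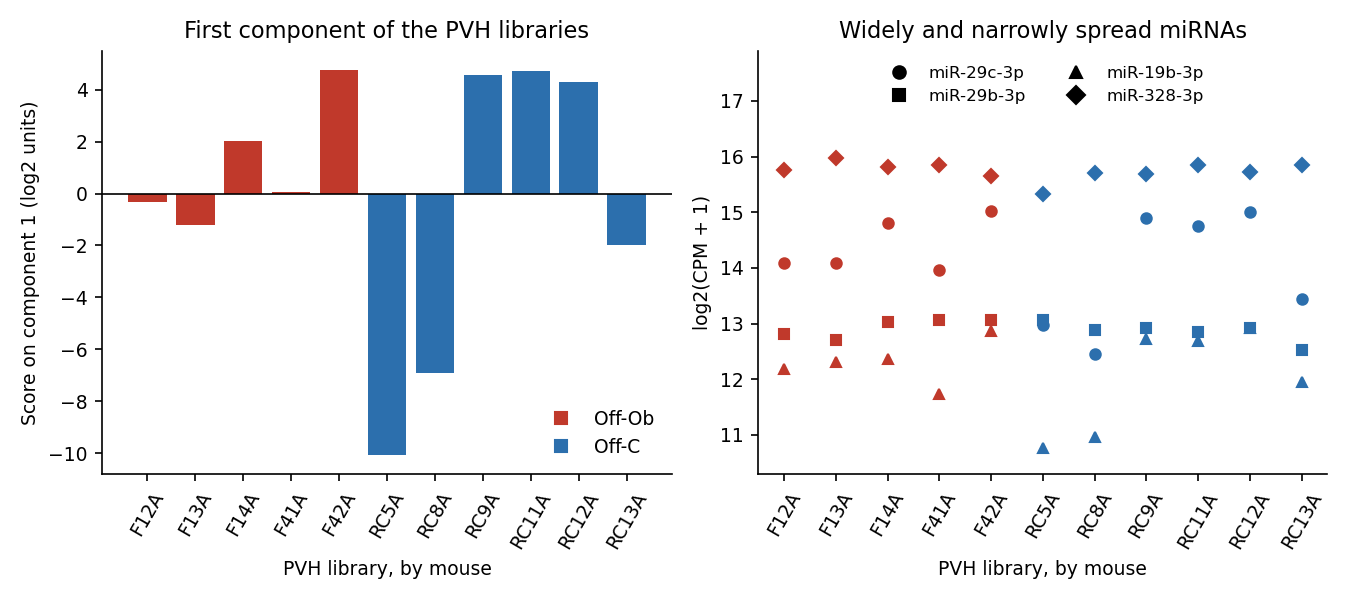
Left, score on the first principal component of the 11 PVH libraries (log2 units), by mouse, Off-Ob in red and Off-C in blue, with RC5A and RC8A lowest at -10.0 and -6.90. Right, log2(CPM + 1) of 4 miRNAs in the same libraries, on an axis that starts above 0, in which miR-29c-3p and miR-19b-3p are low in RC5A and RC8A while miR-29b-3p and miR-328-3p stay within a narrow band.

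miR-29c-3p had the largest spread within groups of the 46 miRNAs with a mean of at least 100 reads (0.88, SD on the log2 scale). Its reads were 922, 508, 1243, 872 and 968 in Off-Ob mice F12A, F13A, F14A, F41A and F42A, or 14.10, 14.09, 14.81, 13.97 and 15.01 on the log2(CPM + 1) scale. In Off-C mice the level was lowest at 12.45 in RC8A and highest at 15.00 in RC12A, with a median of 14.10. RC5A, RC8A and RC13A were below every Off-Ob library, and the other 3 Off-C libraries were among the highest of all. miR-19b-3p, a member of the growth-promoting miR-17-92 cluster, came next at 0.75, with 148 to 246 reads in Off-Ob and 64 to 346 reads in Off-C libraries. It was followed by miR-153-3p at 0.51, miR-5109, miR-5100, miR-98-5p and miR-126-5p, and the last of the 8 was let-7i-5p at 0.43. The narrowest were miR-328-3p at 0.16, miR-125b-5p and miR-29b-3p at 0.17, miR-125a-5p at 0.19 and miR-149-5p at 0.20. miR-328-3p gave 1499 to 3217 reads in Off-Ob and 1489 to 2419 reads in Off-C libraries.

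Ratios of reads within a library carry no scale factor, and those of chosen pairs of the same seed are given here. The pairs were chosen with the levels known. miR-29c-3p had the widest spread and miR-29b-3p one of the narrowest, so a wide ratio follows from that choice. The ratio of miR-29c-3p to miR-29b-3p, which share a seed and a chromosomal neighbourhood, was 2.45, 2.61, 3.43, 1.88 and 3.86 in Off-Ob mice F12A, F13A, F14A, F41A and F42A, against 0.941, 0.743, 3.92, 3.74, 4.22 and 1.90 in Off-C mice RC5A, RC8A, RC9A, RC11A, RC12A and RC13A. All Off-Ob values lay inside the Off-C range. The ratio of let-7i-5p to let-7f-5p ran from 0.471 to 0.977 in Off-Ob and from 0.230 to 1.01 in Off-C libraries, lowest again in RC8A and highest in RC12A. In the ARC libraries, the same ratios ran from 0.571 to 4.89 and from 0.0713 to 0.911, with the ARC library of F42A lowest for both. The PVH library of F42A was the highest of the Off-Ob group for both.

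The proportion of the 5p and 3p arms of a hairpin varied as well. Of 15 hairpins with both arms listed, the widest range was that of miR-126, an endothelial hairpin in the gene Egfl7. Its 5p to 3p ratio was 25.1, 20.6, 17.3, 27.2 and 8.07 in Off-Ob mice F12A, F13A, F14A, F41A and F42A, against 67.7, 34.2, 13.3, 9.37, 9.58 and 72.0 in Off-C mice RC5A, RC8A, RC9A, RC11A, RC12A and RC13A. miR-126-3p gave only 9 reads in RC13A and 20 in RC5A, so the highest ratios rest on few reads. The ratio of miR-9-5p to miR-9-3p, from a neural progenitor hairpin, ran from 1.79 to 4.38 in Off-Ob and from 1.46 to 4.46 in Off-C libraries.

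miR-30e-3p was absent from a single library. RC5A gave 0 of 56253 reads, which allows a share of up to 0.00533%, while its near-identical partner miR-30a-3p gave 178 reads there. The other Off-C libraries gave 26 to 61 reads of miR-30e-3p, and Off-Ob mice F12A, F13A, F14A, F41A and F42A gave 61, 51, 62, 68 and 35. Their ratio to miR-30a-3p was 0.271 to 0.340 in Off-Ob and 0.243 to 0.357 in the 5 other Off-C libraries. How reads were assigned between partners that differ by 1 base was not tested. The other zeros were miR-31-5p in RC8A, miR-344e-3p in RC9A and miR-652-5p in F13A and RC8A, which had at most 10 reads in any library.

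**Figure D3:**
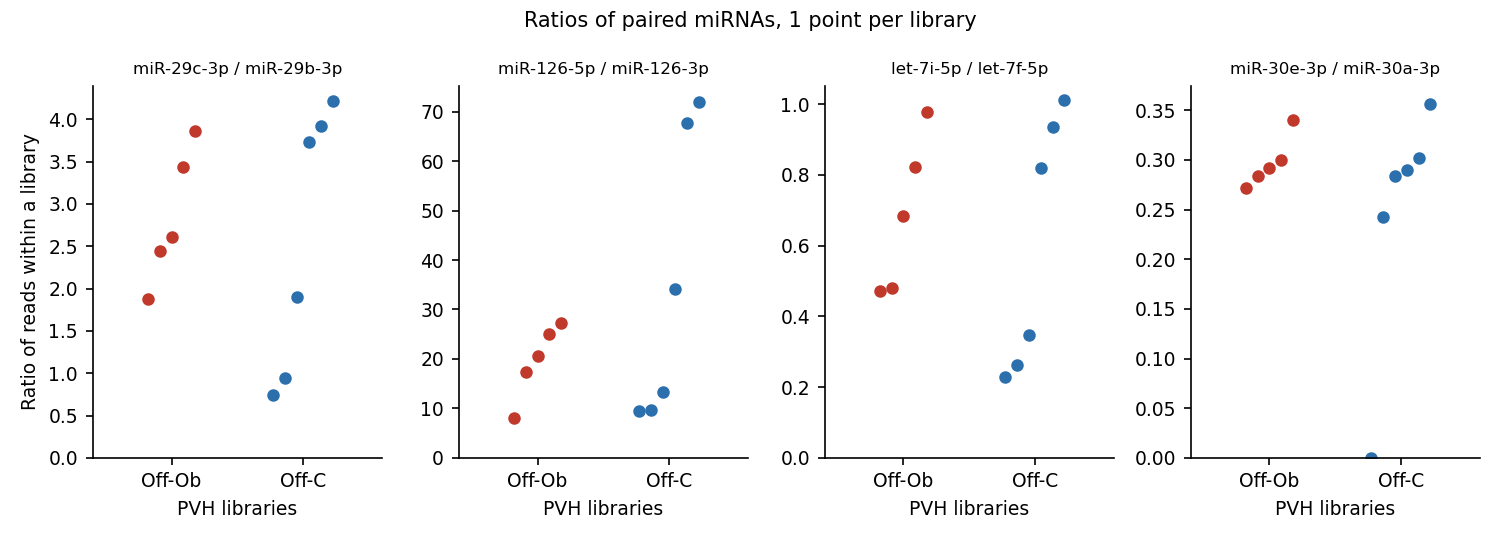
Ratio of the reads of 2 miRNAs within each PVH library (linear axes from 0), Off-Ob in red at the left and Off-C in blue at the right of each panel, 1 point per library in order of value. Off-C libraries reach lower for miR-29c-3p to miR-29b-3p and let-7i-5p to let-7f-5p, and RC5A is at 0 for miR-30e-3p to miR-30a-3p.

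The PVH library of a mouse was compared with the ARC library of the same mouse. Deviations from the Off-C mean over the 172 miRNAs had a median correlation of -0.0048 between the 2 nuclei of the same mouse (10 mice, from -0.42 to 0.15), and of 0.011 over 90 pairs of different mice. The loadings on the first component of each nucleus correlated at 0.046 across the 172 miRNAs and at 0.067 across the 110 with a mean of at least 20 reads. miRNAs are not independent replicates, and these values are descriptions. The loadings of the 94 such miRNAs with a sequence had a Spearman rho of 0.032 with GC content.

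No PVH miRNA passed the test for a difference by maternal group. By limma on log2(CPM + 1), with a trend in the variance and adjustment after Benjamini and Hochberg, 0 of 172 miRNAs (0.0%) had an adjusted p under 0.05 and 0 (0.0%) an unadjusted p under 0.05, and limma-voom on the recovered reads gave 0 of each as well. The lowest adjusted p was 0.984. No miRNA had every Off-Ob library above (0.0%) or below (0.0%) every Off-C library. Of the differences, 98 were above 0 and 74 below. The median absolute difference was 0.15 on the log2 scale, against a median SD within groups of 0.44. The 95% interval lay within 1 log2 unit of 0 for 123 miRNAs, among them 44 of the 46 with a mean of at least 100 reads but 7 of the 37 with under 10. Beyond 1 log2 unit lay only 3 differences, those of miR-30e-3p at 1.85, miR-31-5p at 1.57 and miR-344e-3p at 1.48, each with an Off-C library at 0 reads. Without the library at 0 reads, they were 0.14 for miR-30e-3p (RC5A left out), 0.54 for miR-31-5p (RC8A) and 0.32 for miR-344e-3p (RC9A). With both RC5A and RC8A left out, miR-30e-3p was -0.0024 and miR-31-5p 0.08. The p-values measure the spread between these mice, each from a litter of its own per the study's methods.

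**Figure D4:**
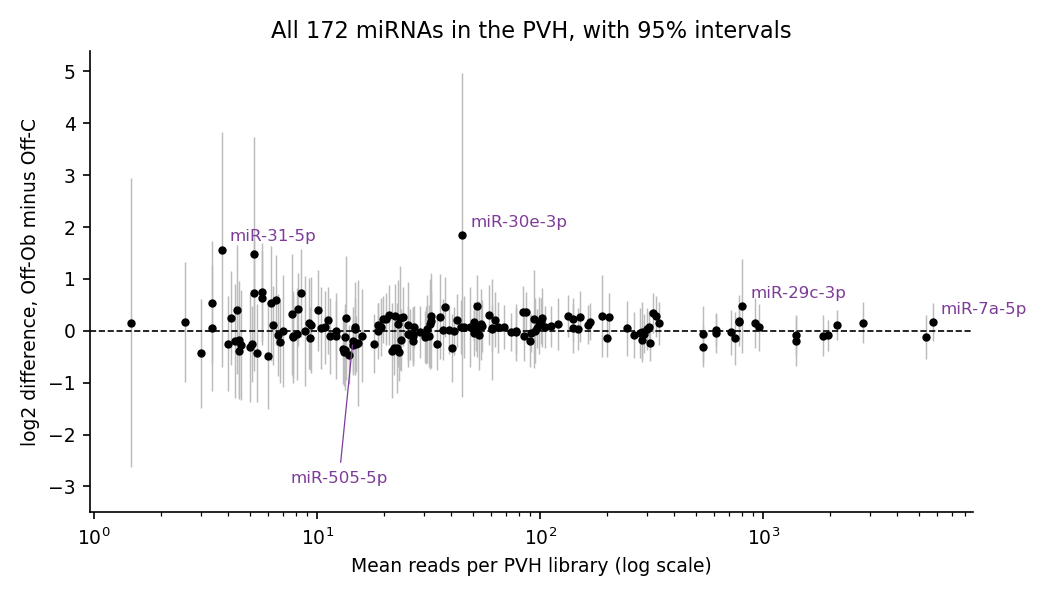
log2 difference (Off-Ob minus Off-C) of all 172 miRNAs in the PVH against the mean reads per library (log axis), with 95% intervals from limma. Intervals narrow with depth and all include 0, and the 3 points above 1 are miRNAs with 0 reads in an Off-C library.

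miR-505-5p had few reads in the PVH and overlapped fully between the maternal groups. It gave 13, 12, 14, 24 and 8 reads in Off-Ob mice F12A, F13A, F14A, F41A and F42A and 7 to 20 reads in Off-C mice. Its log2(CPM + 1) level was 7.95, 8.69, 8.34, 8.79 and 8.10 in those Off-Ob mice, against 7.95 to 9.29 with a median of 8.39 in Off-C mice. All Off-Ob values lay within the Off-C range. The difference was -0.19 with a 95% interval from -0.84 to 0.45 (adjusted p = 0.984 from limma; two-sided exact permutation p = 0.537 over 462 splits), and -0.04 without RC5A and RC8A. With single libraries left out it ran from -0.32 (RC12A) to -0.05 (RC8A). In the ARC the difference was 1.76, and the PVH difference minus the ARC difference was -1.96 (95% interval -3.81 to -0.12, unadjusted p = 0.0375, adjusted p = 0.672 by limma, blocked by mouse). None of the 172 miRNAs (0.0%) passed the adjusted threshold in this comparison of nuclei and 5 (2.91%) passed without adjustment, which besides miR-505-5p were miR-541-5p, miR-29c-5p, miR-487b-3p and miR-132-3p. The ARC library of F42A stood apart, with 20 miRNAs at 0 reads and a scale factor of 0.470. Without it, in a fit added after seeing the data, the ARC difference of miR-505-5p was 0.98, the difference between nuclei was -1.24 (95% interval -2.53 to 0.04), and 1 miRNA passed without adjustment, which was none of these 5. In the PVH itself miR-132-3p, an activity-regulated neuronal miRNA, had a difference of 0.07 (95% interval -0.34 to 0.47), which was -0.03 without RC9A, -0.0086 without F13A and 0.23 without RC5A and RC8A.

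The other miRNAs that the study listed for the PVH were also all reported by it as higher in Off-Ob mice, by over 1 log2 unit and at the same threshold. Of these, miR-92b-5p gave 9, 2, 7, 14 and 6 reads in Off-Ob mice F12A, F13A, F14A, F41A and F42A and 2 to 7 reads in Off-C mice. 4 of the 5 Off-Ob libraries were above every Off-C library on the log2 scale, and F13A was low. This separation rests on few reads and on the scale factors. By plain share of reads, F12A and F14A were below the highest Off-C library, RC11A, at 0.0178%. The difference was 0.64 (95% interval -0.26 to 1.54) and the adjusted p was 0.984 by limma. It was 0.40 without RC5A and RC8A. let-7e-5p measured 13.87 ± 0.24 in Off-Ob and 13.91 ± 0.33 in Off-C mice, and let-7k measured 15.42 ± 0.25 in Off-Ob and 15.51 ± 0.35 in Off-C mice (SD on the log2 scale, n = 5 and 6). Their differences, -0.04 and -0.09, were both 0.07 with RC5A and RC8A left out.

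In the ranking by p, miR-146b-5p and miR-128-3p came first, with differences well under 1 log2 unit. miR-146b-5p, a feedback inhibitor of inflammatory signalling, gave 127, 53, 120, 157 and 65 reads in Off-Ob mice F12A, F13A, F14A, F41A and F42A, against 42 to 105 reads with a median of 70 in Off-C mice. Its levels were 11.24, 10.83, 11.43, 11.50 and 11.12 in those Off-Ob mice, against 10.64 to 11.30 with a median of 10.78 in Off-C mice, so F14A and F41A alone were above every Off-C library. The difference was 0.36 (95% interval -0.03 to 0.75, adjusted p = 0.984 by limma). miR-128-3p, a neuron-enriched miRNA that dampens neuronal excitability in mice, measured 13.15 ± 0.26 in Off-Ob and 12.80 ± 0.29 in Off-C mice (SD, n = 5 and 6), a difference of 0.35 with a 95% interval from -0.04 to 0.73. It was 0.19 without RC5A and RC8A. The remaining 6 of the 8 smallest p-values among higher miRNAs were those of miR-28a-3p (0.73), miR-194-5p (0.47), miR-6540-5p (0.75), miR-6243 (0.47), miR-134-5p (0.37) and miR-378a-3p (0.74). Without RC5A and RC8A, miR-194-5p was 0.08, miR-134-5p 0.09 and miR-28a-3p 0.44. Single libraries also mattered. Without RC8A alone, miR-194-5p was 0.30 and miR-134-5p 0.18. miR-378a-3p was 0.47 without RC13A, and miR-6243 was 0.75 without F14A.

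Among the lower miRNAs, miR-135a-5p gave 661, 295, 559, 667 and 311 reads in Off-Ob mice F12A, F13A, F14A, F41A and F42A, and 278 to 1095 reads with a median of 531 in Off-C mice. Its difference was -0.31 (95% interval -0.70 to 0.09), and it was -0.20 without RC5A and -0.07 without RC5A and RC8A, its highest libraries. miR-181a-5p, known in mouse for tuning T cell receptor signalling, measured 8.93 ± 0.47 in Off-Ob and 9.34 ± 0.38 in Off-C mice (SD, n = 5 and 6), a difference of -0.41 with a 95% interval from -0.97 to 0.15. The other lower miRNAs of small p were miR-6240 (-0.46), miR-149-5p (-0.24), miR-127-5p (-0.33), miR-485-3p (-0.40), miR-344-3p (-0.28) and miR-344b-3p (-0.36). Several of these rested on 1 library. miR-485-3p was -0.15 without F42A and -0.63 without F13A, miR-344b-3p was -0.15 without F14A, miR-127-5p was -0.18 without RC11A and miR-6240 was -0.26 without F41A. Without RC5A and RC8A, miR-344-3p was -0.44 and miR-344b-3p -0.54. The adjusted p was 0.984 by limma for each of these 16 miRNAs.

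**Figure D5:**
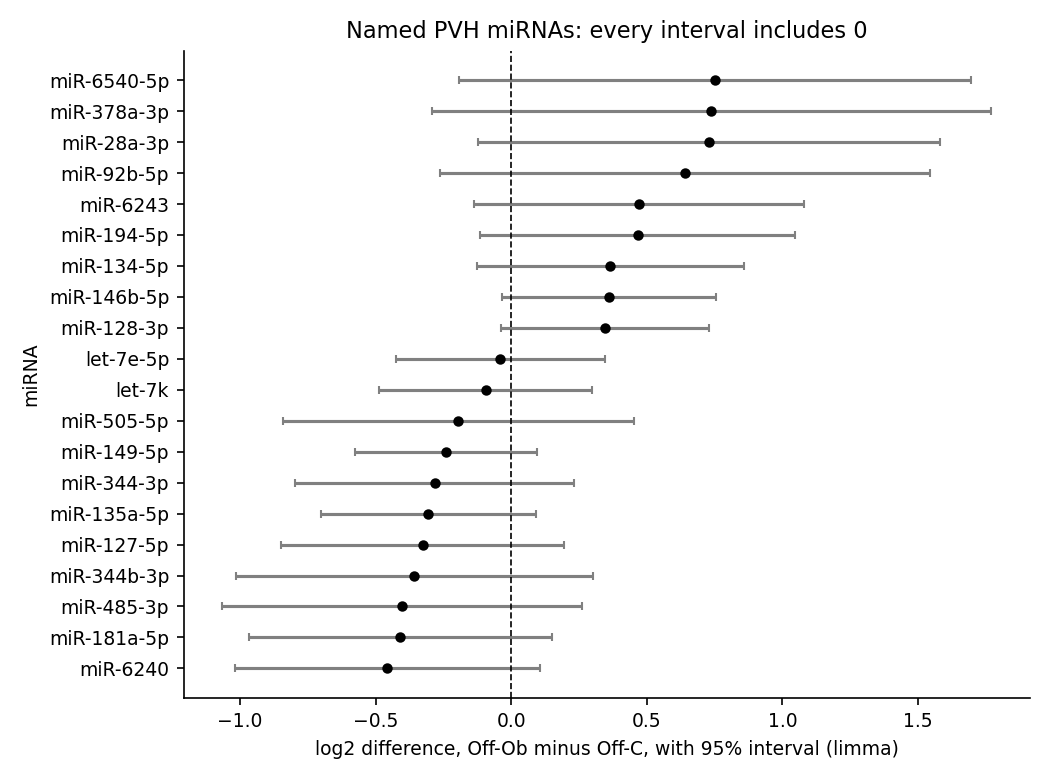
log2 difference (Off-Ob minus Off-C) with 95% intervals from limma for the 4 miRNAs the study listed for the PVH and the 8 of smallest p in each direction, ordered by difference. Every interval includes 0.

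By family and cell type, none of the lists had a member past the adjusted threshold. The median difference of all 172 miRNAs was 0.05, and it was -0.01 with median-ratio size factors, -0.0023 with quantile normalization and 0.03 without RC5A and RC8A. The let-7 family had 4 members above 0 and 6 below, with a median of -0.05 and a range from -0.19 (let-7f-5p) to 0.25 (let-7a-5p). That direction did not hold throughout, since 6 members were above 0 with quantile normalization and 8 without RC5A and RC8A, with medians of 0.03 and 0.07. let-7a-5p was -0.28 without RC11A and 0.70 without RC5A and RC8A, and let-7f-5p was 0.02 without them. Of the 15 neuronal miRNAs 7 were above 0 and 8 below, with a median of -0.02, miR-138-5p lowest at -0.25 and miR-128-3p highest at 0.35. Without RC5A and RC8A, 9 were above 0 and the median was 0.12, and miR-138-5p was -0.16. It was -0.11 without F14A. The imprinted chromosome 12 cluster is transcribed from the maternal chromosome, and 18 of the 36 names listed for it were measured. They had 14 above 0 and 4 below with a median of 0.07, against 57.0% above 0 among all 172. Measured arms that the list did not name, such as miR-127-5p and miR-380-3p, are not in this count. With quantile normalization 9 of the 18 were above 0, with a median of 0.0092. Of the 9 miRNAs tied to energy balance 6 were above 0, among them miR-7a-5p at 0.16 and miR-29c-3p at 0.47. miR-29c-3p was at -0.13 without RC5A and RC8A and at 0.18 without RC8A alone, and miR-7a-5p was at 0.11 without RC5A and RC8A and at 0.05 without F12A. The 3 members of miR-29 were above 0 and the 3 of miR-181 below, with medians of 0.23 and -0.12. Without RC5A and RC8A, 2 of the miR-29 members were above 0 with a median of 0.04, and the miR-181 median was -0.29. Of miRNAs numbered 2000 or higher in miRBase, 13 were measured, and they had 8 above 0 and 5 below, with a median of 0.05 (6 above 0 and a median of -0.0081 with median-ratio size factors, and 7 above 0 and a median of 0.0045 without RC5A and RC8A).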

How the data were processed

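Small RNA libraries (TruSeq Small RNA) were mapped by the authors with Bowtie 1.2.3 to GRCm38 and tested in edgeR 3.36.0, per the submitters' processing notes. The deposited values are log2(CPM + 1) of 172 miRNAs, in which CPM count reads against the library total times a scale factor. The study's methods name RPKM, but no gene length enters the deposited log2 values. The miRNA annotation and the filter behind the 172 entries are not given in the sources used here. Read counts, totals and factors were recovered from the steps of the values.

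Off-Ob and Off-C were compared by limma 3.58.1 in R 4.3.3 (lmFit, eBayes with trend), and miRNAs needed a CPM of at least 1 in 5 libraries, which kept all 172. The step was tested on simulated data. Permutation tests were two-sided, with 100000 random permutations for correlations at 11 libraries. The comparison of nuclei used an interaction over 22 libraries, blocked by mouse (consensus correlation -0.088). Components came from singular value decomposition of centred values. Named miRNAs are the 4 the study listed for the PVH, the 10 of highest mean share, the 8 of smallest p in each direction, the 8 of largest and 5 of smallest spread within groups among those with at least 100 reads on average, and the 6 of largest loading at each end of the first component. Names, lists and members were chosen with earlier results of these data known. Alternatives were pseudocounts of 0.5, 10 and 100, no filter, a CPM of at least 500, plain CPM, median ratios, quantile normalization, no trend, robust, each library left out, limma-voom, and both RC5A and RC8A left out. The last 2, a component with a pseudocount of 100 or without miR-30e-3p, other settings of the relation with the scale factor, the lists under other scalings, and the interaction without the ARC library of F42A were added after seeing the data. SciPy 1.17.1 and NumPy 2.4.6 under Python 3.11.15 gave the permutation tests and components.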

Additional observations from a re-analysis of the deposited data

Results flagged for a closer look

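Within the 5 Off-Ob or the 6 Off-C PVH libraries, 116 groups of values (named miRNAs and library measures) were examined for a library far from the others by Dixon's gap, and 7 stood apart. Chance gives about 1 in 20 for unselected values. Many of these miRNAs were chosen by their spread or loading in the same data, so that rate does not hold here. In Off-Ob, F42A was high for miR-125b-5p, at 14.20 against at most 13.92 in the other 4, and low for miR-340-3p, at 7.11 against at least 7.67, with 4 reads against 6 to 11. F13A was the only Off-Ob library with a miRNA at 0 reads, with 1 against 0. In Off-C, RC5A was low for miR-30e-3p, at 0 against at least 9.67, and for miR-328-3p, at 15.33 against at least 15.68, with 2200 reads against 1489 to 2419 at lower depths. RC9A was low for miR-344e-3p, at 0 against at least 5.99, with 0 reads against 2 to 7. RC8A was low for miR-652-5p, at 0 against at least 4.31, with 0 reads against 1 to 2.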

How the results depend on the processing

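Under 23 alternatives, 0 miRNAs passed the adjusted threshold in each (of 172 tested, or 113 with a CPM of at least 500), with a lowest adjusted p between 0.953 and 0.998 by limma. Leaving out single libraries moved the number at an unadjusted p under 0.05 from 0 to between 0 and 3, with 3 without RC11A, 2 without F13A, F14A or F42A and 1 without RC9A, RC12A or RC13A. miR-505-5p stayed below 0 in all, from -0.32 to -0.05 with single libraries left out. Of 52 miRNAs whose difference was followed (the named ones, miR-132-3p and miR-138-5p), 25 changed sign in some alternative, and 0 passed the adjusted threshold in any. Without RC5A and RC8A, miRNAs above 0 otherwise were at -0.11 (let-7i-5p), -0.16 (miR-191-5p), -0.27 (miR-19b-3p), -0.13 (miR-29c-3p), -0.0024 (miR-30e-3p), -0.36 (miR-322-5p), -0.34 (miR-380-3p) and -0.93 (miR-652-5p), and miRNAs below 0 otherwise were at 0.051 (let-7b-5p), 0.064 (let-7c-5p), 0.071 (let-7e-5p), 0.020 (let-7f-5p), 0.068 (let-7k), 0.052 (miR-125a-5p), 0.14 (miR-126-5p), 0.33 (miR-153-3p), 0.38 (miR-340-3p), 0.12 (miR-467a-5p) and 0.16 (miR-467b-5p). Leaving out RC5A and RC8A also moved some differences without a change of sign. These were miR-328-3p (0.12 to 0.030), miR-335-5p (0.068 to 0.26) and miR-98-5p (0.048 to 0.25). The same held for miR-29b-3p (0.073 to 0.13), miR-125b-5p (0.012 to 0.046) and miR-5100 (-0.061 to -0.10). Quantile normalization turned let-7b-5p to 0.039, let-7f-5p to 0.026, miR-125b-5p to -0.17, miR-132-3p to -0.069 and miR-652-5p to -0.28. Median ratios turned miR-125b-5p to -0.046 and miR-98-5p to -0.010, and plain CPM turned miR-125b-5p to -0.0057. With single libraries left out, the range was -0.28 to 0.50 for let-7a-5p, -0.17 to 0.0072 for let-7b-5p, -0.13 to 0.043 for let-7e-5p, -0.17 to 0.0052 for let-7k, -0.055 to 0.050 for miR-125b-5p, -0.033 to 0.14 for miR-132-3p, -0.16 to 0.17 for miR-153-3p, -0.092 to 0.39 for miR-322-5p, -0.020 to 0.21 for miR-335-5p, -0.45 to 0.19 for miR-340-3p, -0.033 to 0.48 for miR-380-3p, -0.22 to 0.20 for miR-5100, -0.71 to 1.27 for miR-652-5p and -0.074 to 0.19 for miR-98-5p. A pseudocount of 100 lowered differences of low-read miRNAs by over 1.5 times, to 0.75 for miR-30e-3p, 0.37 for miR-92b-5p, 0.45 for miR-28a-3p, 0.41 for miR-6540-5p and 0.35 for miR-378a-3p. The first component held 35.6% of the variance on plain CPM, 53.7% among miRNAs with at least 20 reads, 34.7% on deviations from group means, 42.3% with a pseudocount of 100 and 33.2% without miR-30e-3p, and RC5A and RC8A were its lowest libraries in each. Its Pearson r with the scale factor was 0.68 on plain CPM (permutation p = 0.022) and 0.81 without RC5A and RC8A (permutation p = 0.0076, n = 9). The interaction without the mouse block gave 0 adjusted and 7 unadjusted calls, and without the ARC library of F42A 0 and 1. No paired analysis was possible because the columns carry no replicate number of a sample record and the maternal groups share no mouse. edgeR's quasi-likelihood test was planned but not run, and limma-voom on the recovered reads was used instead. The likelihood ratio test of the study was not run either. In depth, the 37 miRNAs with a mean under 10 reads had a median SE of 0.44, against 0.19 in the 46 with at least 100, so only larger differences were detectable there.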
